A study of Mus musculus with 9 samples.

Results

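Chemokines are small secreted proteins that make cells move, and chemokine receptors are the membrane proteins that read them. In islets, the hormone-secreting cell clusters of the pancreas, 61 genes of this family were found among 56941 genes counted, 38 ligands and 23 receptors. They were chosen by name alone: symbols starting with Ccl, Cxcl, Ccr, Cxcr or Ackr and a number, together with Cx3cl1, Cx3cr1, Xcl1 and Xcr1, leaving out 2 pseudogenes. The islets came from male wild-type C57BL/6J mice that entered the study at 15 weeks of age and then ate a single diet for 9 months. The control diet was low in fat (LFD, 10% fat, 3 libraries), the second was a high fat diet (HFD, 60% fat, 2 libraries) and the third a ketogenic diet (KD, 89.9% fat, 4 libraries). The study asked how a ketogenic diet alters gene expression in islets, and these were bulk libraries of isolated islets, so every cell in the preparation contributed. The labels number the libraries within a diet but do not state that each is a separate mouse, so p-values measure the spread between these samples.

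A chemokine binds a receptor coupled to an inhibitory G protein, and the cell crawls up the chemokine gradient. Homeostatic chemokines place lymphocytes in lymphoid tissue, with Cxcl13 drawing B lymphocytes through Cxcr5 and Ccl19 and Ccl21 drawing naive T lymphocytes and dendritic cells through Ccr7. Inflammatory chemokines such as Ccl2, Cxcl1 and Cxcl10 are made on demand, and islet cells, macrophages, endothelium and stroma can all release them. Atypical receptors bind chemokines without G protein signalling and remove or transport them.

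On the ketogenic diet, ligands and receptors of several branches were lower than on the low fat diet, and none was called higher. Neutrophil attractants (Cxcl1, Cxcl2), monocyte attractants (Ccl2, Ccl7), the interferon-inducible Cxcl10, the B lymphocyte attractant Cxcl13 and the lymphocyte receptors Cxcr5, Ccr7, Ccr6 and Cxcr4 were among those that fell. Cxcl12, Cx3cl1, Ccl25 and Ccl28, which supplied much of the family's signal on KD, did not pass the test. Of the 61 genes, 38 had enough counts to be tested, by edgeR's quasi-likelihood test with p-values adjusted over 18548 genes and a threshold of 0.05. For KD against LFD, 14 passed, 10 ligands and 4 receptors, all 14 lower on KD, where 4.12% of all genes tested were called, 3.14% lower and 0.981% higher. The median log2 fold change of the 38 was -1.91 (-0.02 over all genes tested), and 34 were below 0. The libraries of KD and LFD did not overlap for the 14, nor for 19 of the 38, all lower on KD, where 19.7% of genes did not overlap, 10.1% with KD below LFD and 9.69% with KD above. Of the 38, 8 reached the level the filter asks for in no library outside LFD, 4 of the 14 among them (Ccl5, Ccl7, Ccr6 and Cxcr5). The filter asks for that level in 2 libraries. Of the other called genes, Ccl2, Ccl4, Cxcl2, Cxcl13 and Ccr7 reached it in a single HFD library and no KD library. They too were tested only through their LFD libraries, where they were high, so these counts are given as a description. On leaving out a library the count dropped to 8 (LFD replicate 1), 6 (LFD replicate 2), 5 (KD replicate 2) and 5 (KD replicate 3). With a B lymphocyte score as a covariate, edgeR called 0 family members (5 at an unadjusted p below 0.05) and 0 genes in all, and score and diet cannot be told apart in that fit, since the score was 2.02 to 4.31 on LFD and -2.27 to -0.47 on the other diets.

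Libraries held 15513502 to 26588390 counts, and the family took 824 to 5576 of them, 0.00454% to 0.0310%, so many values below rest on few counts. Levels are given as CPM, counts per 1000000 of the TMM-scaled library size. On that scale 1 count stood for 0.0778 CPM in KD replicate 1 and 0.0891 in KD replicate 3, against 0.0448 to 0.0613 on LFD. KD replicates 1 and 3 thus had the smallest scaled sizes of the 9 libraries, despite their raw totals, and their 0 counts carry less weight. Beta cell markers, which define islets, were present in every library and summed to 30687 to 109092 CPM, but 8 acinar markers, from the enzyme-making tissue around islets, summed to more than the beta cell markers in 8 of 9 libraries. The acinar sums were 85067 to 234429 CPM on LFD, 54056 to 111680 on HFD and 126484 to 823975 on KD. KD replicates 1 and 3 had the highest, 823975 and 656519 CPM. For KD against LFD the 8 acinar markers had a median log2 fold change of 1.72, with 0 called by edgeR and 6 at an unadjusted p below 0.05, and for KD against HFD the median was 2.58, with 0 called and 8 at an unadjusted p below 0.05. Over all genes tested, 4.12% were called for KD against LFD and 0% for KD against HFD. An unadjusted edgeR p below 0.05 was found for 22.7% of them in both comparisons. With an acinar score as a covariate 12 family members were called for KD against LFD. LFD libraries stood apart in lymphocyte markers: the 10 B lymphocyte markers summed to 77, 156 and 32.1 CPM in LFD replicates 1 to 3, 3.15 and 5.28 on HFD and 2.49, 2.05, 1.16 and 1.61 on KD. The T lymphocyte list of 11 genes summed to 17.2, 44.4 and 4.6 CPM on LFD, 1.75 and 1.72 on HFD and 1.71, 1.2, 1.07 and 1.03 on KD. All 10 B lymphocyte markers and 7 of 10 tested T lymphocyte markers were called lower on KD than on LFD. Over all genes tested, 3.14% were called lower. In bulk libraries fewer cells of a type and less RNA per cell cannot be told apart.

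**Figure D1:**
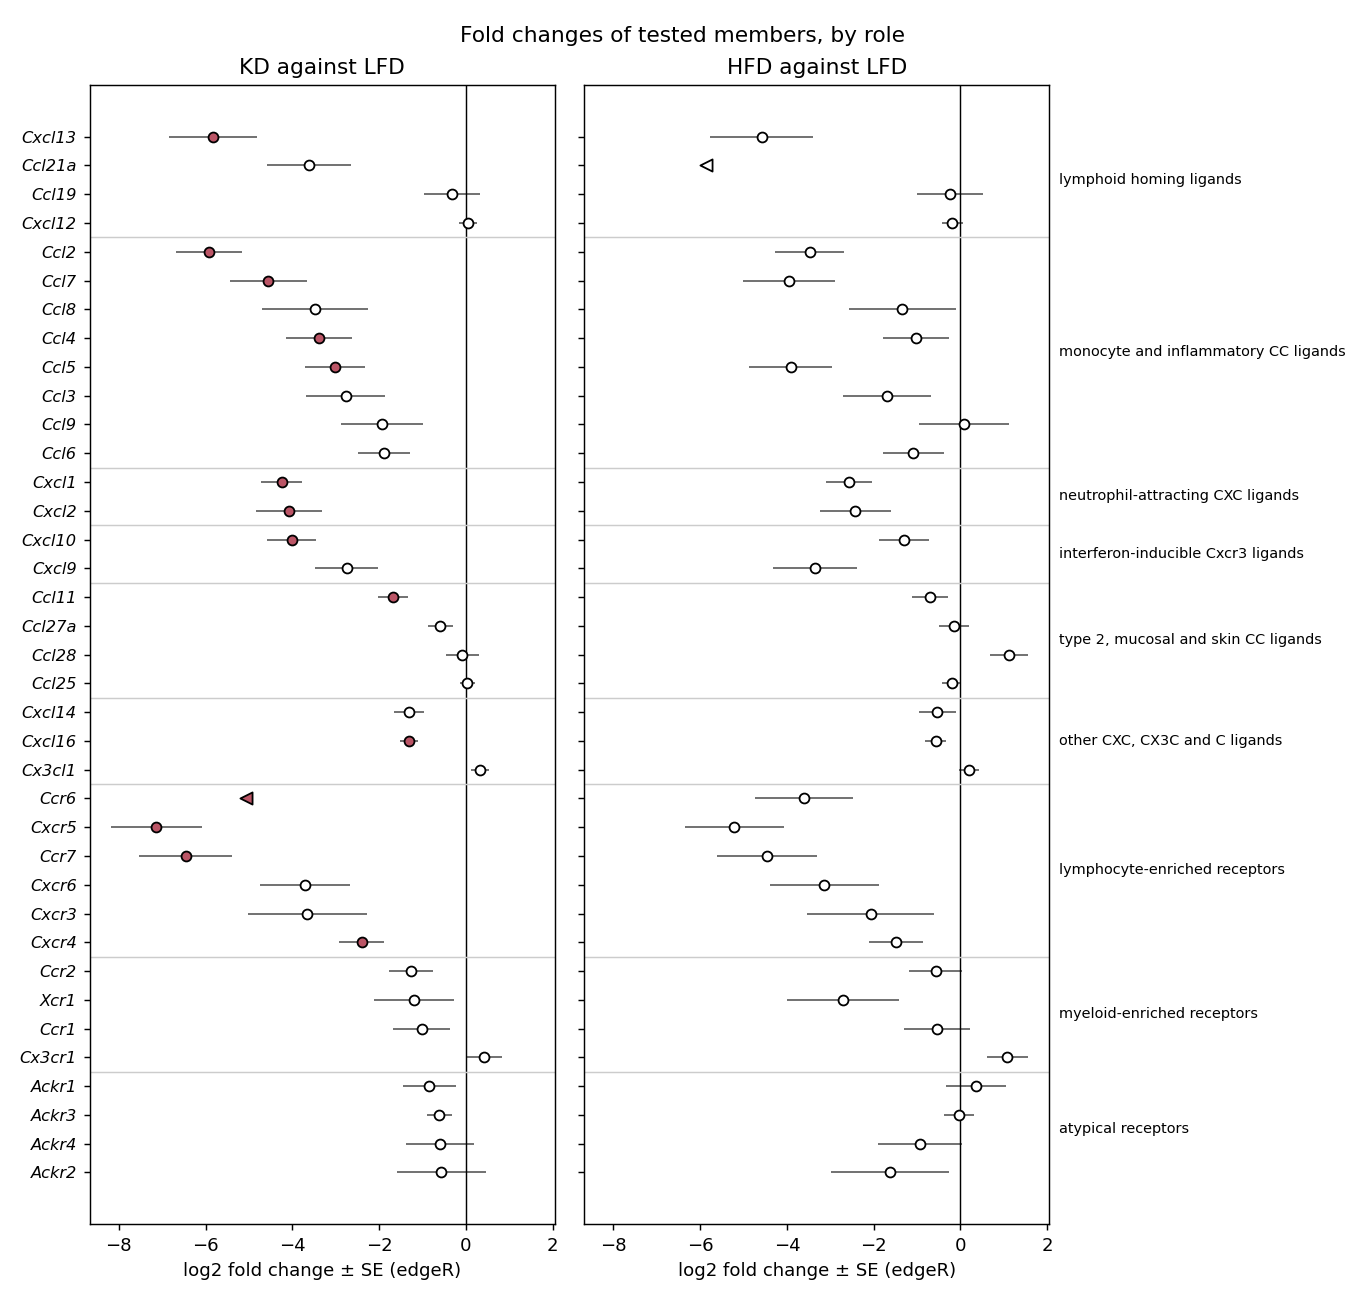
Log2 fold changes (horizontal axis) of 37 tested chemokine and receptor genes, grouped by role, for KD against LFD (left) and HFD against LFD (right), with standard errors as bars and filled points for genes past the adjusted p threshold. Left-pointing triangles stand for genes with 0 counts in the diet compared and lie at the bound given by a floor of 3 counts. For KD against LFD 33 of the 37 lie below 0 and 14 are filled, and no point is filled for HFD against LFD.

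The neutrophil-attracting ligands were the branch in which each tested gene was called lower on KD, 2 of 2, where 3.14% of all genes tested were called lower. Cxcl1 (ENSMUSG00000029380) and Cxcl2 (ENSMUSG00000058427) bind Cxcr2 and recruit neutrophils, and both lie in the cluster of CXC ligands on chromosome 5. Cxcl1 stood at 7.97, 7.66 and 3.75 CPM in LFD replicates 1 to 3, 0.5 and 1.63 CPM in the HFD libraries and 0.311, 0.446, 0.356 and 0.224 CPM in KD replicates 1 to 4. Each LFD library was above each HFD and KD library. The KD mean of Cxcl1, 0.334 ± 0.0923 CPM (SD, n = 4), was below the LFD mean of 6.46 ± 2.35 (SD, n = 3), with HFD at 1.07 ± 0.802 (SD, n = 2) (log2 fold change -4.25, SE 0.47, edgeR adjusted p 0.00235). This call held in each of the 9 omissions of 1 library (adjusted p up to 0.0136). Cxcl2 measured 3.56, 2.15 and 0.657 CPM in LFD replicates 1 to 3, 0.4 and 0.377 CPM in the HFD libraries and 0.311, 0.0891, 0 and 0.0896 CPM in KD replicates 1 to 4. LFD replicate 3 was the lowest LFD library, and it lay above the HFD and KD libraries by a small margin. Mean Cxcl2 fell from 2.12 ± 1.45 CPM (LFD, SD, n = 3) to 0.122 ± 0.133 CPM (KD, SD, n = 4), and was 0.389 ± 0.0163 CPM on HFD (SD, n = 2) (log2 fold change -4.08, SE 0.76, edgeR adjusted p 0.0182). The call of Cxcl2 was lost on leaving out LFD replicate 1 (edgeR adjusted p 0.0774), LFD replicate 2 (0.0522), KD replicate 2 (0.0666) and KD replicate 3 (0.0524), and its log2 fold change was -4.8 without KD replicate 1 and -5.11 with an acinar score as a covariate. Cxcl3, Cxcl5 and Cxcl15, the other ligands of this branch, had too few counts to test, and of their receptors Cxcr1 had 0 counts in every library and Cxcr2 had 14 counts on LFD, 2 on HFD and 2 on KD. The 7 neutrophil markers summed to 0.234 to 2.51 CPM on LFD, 1.22 to 2 on HFD and 0.446 to 1.17 on KD. Of the 7, 2 had 0 counts in every library (Ly6g and Camp) and the others had counts. Only 1 of the 7 was tested, and it was not called.

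The 250 bases before the start of 4 of the ligands called lower on KD are shown, since their promoters could be read from the supplied RefSeq table (GRCm38.p6, an older build than that of the counts). Each is written 5′ to 3′ on the gene's own strand, with matches to 3 short motifs in capitals. Cxcl1 lies at chr5:90890995-90891244, plus strand, Cxcl2 at chr5:90903649-90903898, plus strand, Cxcl10 at chr5:92348890-92349139, minus strand and Cxcl13 at chr5:95956689-95956938, plus strand.
Cxcl1: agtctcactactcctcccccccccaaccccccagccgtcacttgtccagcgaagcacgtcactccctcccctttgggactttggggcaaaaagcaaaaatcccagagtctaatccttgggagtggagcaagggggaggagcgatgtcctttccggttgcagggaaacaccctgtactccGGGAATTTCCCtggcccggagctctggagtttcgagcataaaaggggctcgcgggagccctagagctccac
Cxcl2: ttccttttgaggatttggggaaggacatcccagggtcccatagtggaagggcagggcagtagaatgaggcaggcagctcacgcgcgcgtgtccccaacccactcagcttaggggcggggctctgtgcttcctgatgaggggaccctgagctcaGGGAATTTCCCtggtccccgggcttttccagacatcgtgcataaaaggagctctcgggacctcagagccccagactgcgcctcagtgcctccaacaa
Cxcl10: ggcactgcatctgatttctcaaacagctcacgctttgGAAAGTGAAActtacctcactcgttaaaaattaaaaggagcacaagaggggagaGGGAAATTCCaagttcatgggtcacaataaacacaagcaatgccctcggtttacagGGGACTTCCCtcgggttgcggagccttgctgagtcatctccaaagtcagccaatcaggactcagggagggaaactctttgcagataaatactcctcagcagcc
Cxcl13: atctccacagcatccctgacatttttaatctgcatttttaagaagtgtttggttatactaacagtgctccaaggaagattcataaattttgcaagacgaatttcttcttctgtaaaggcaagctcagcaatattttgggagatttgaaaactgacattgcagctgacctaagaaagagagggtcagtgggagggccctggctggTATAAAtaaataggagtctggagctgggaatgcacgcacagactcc
In Cxcl1 and Cxcl2 the capitals mark matches to the NF-κB consensus on either strand. In Cxcl10 they mark an interferon response element-like match (GAAA, any 2 bases, GAAA) followed by 2 NF-κB consensus matches. In Cxcl13 they mark a TATA box (TATAAA).

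Both strands of 32851 promoter windows were searched. The NF-κB consensus, bound by transcription factors of the inflammatory response, was matched in 3.90% of all windows, 9 of 46 family members with an entry and 4 of 6 called members with one (Ccr6, Cxcl1, Cxcl10 and Cxcl2). Of the 40 other members with an entry, 5 held it. The interferon response element-like motif was matched in 2.98% of all windows and 3 of 46 members (Ccl19, Cxcl10 and Cxcl14). TATAAA was matched in 12.4% of all windows, 15 of 46 members and 2 of the 6 called ones (Cxcl13 and Cxcr4). A match describes the letters of these windows and was not tested against the diets.

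**Figure D2:**
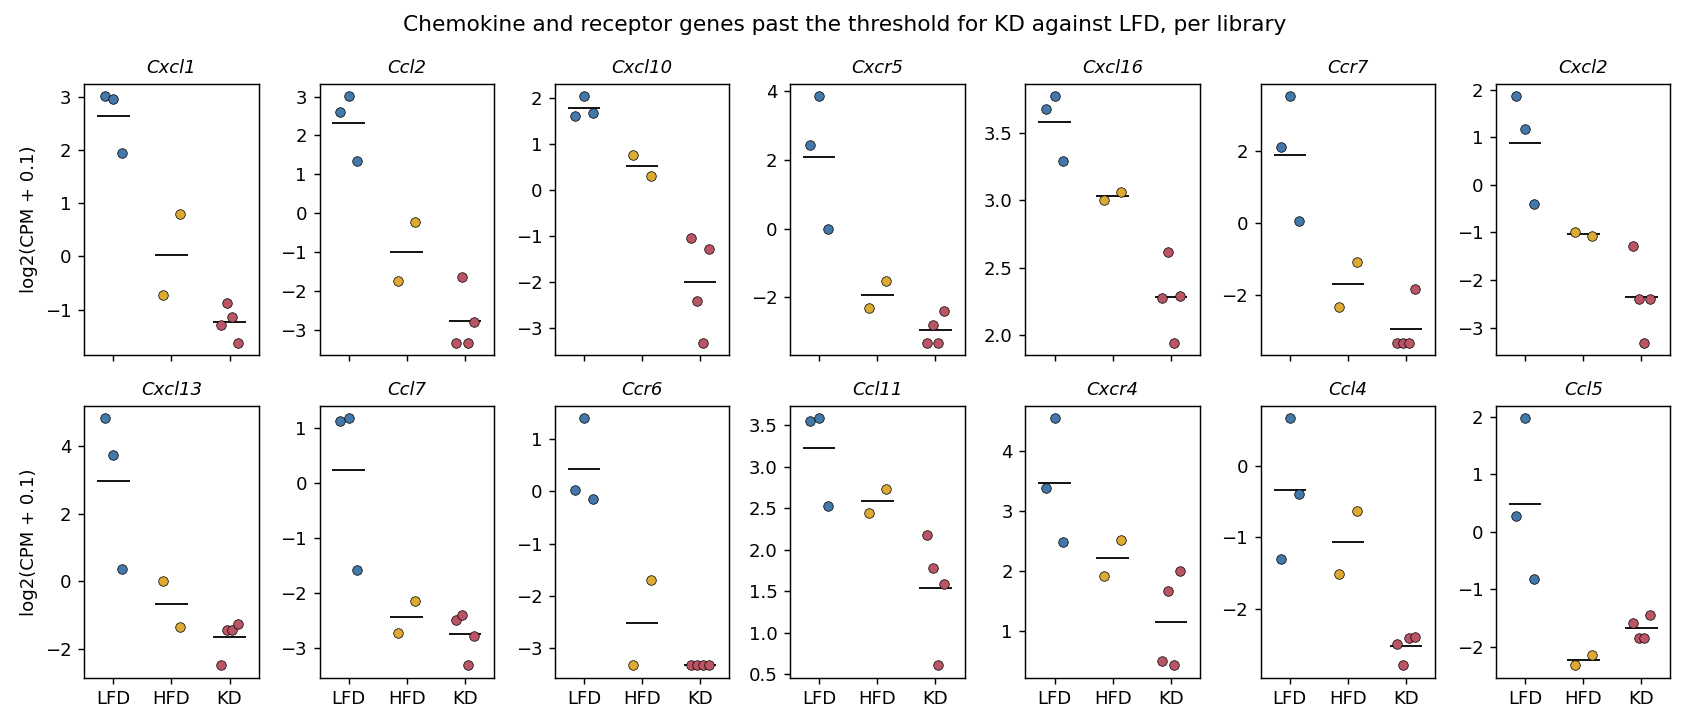
Level in each library (vertical axis, log2 of CPM plus 0.1, 1 panel per gene with its own scale) of the 14 genes called lower on KD than on LFD, with LFD, HFD and KD libraries as separate columns of points and the mean of the plotted values as a line. In all 14 the lowest LFD library lies above the highest KD library, and in 11 the HFD libraries lie below all LFD libraries.

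The interferon-inducible ligands of Cxcr3, the receptor of activated T lymphocytes and natural killer cells, gave 1 call of 2 tested, lower on KD. Over all genes tested 3.14% were called lower. Cxcl10 (ENSMUSG00000034855) was at 2.94, 4.03 and 3.1 CPM in LFD replicates 1 to 3, 1.6 and 1.13 CPM in the HFD libraries and 0.389, 0.0891, 0 and 0.314 CPM in KD replicates 1 to 4. The 3 diets did not overlap, with HFD between LFD and KD. The KD mean of Cxcl10, 0.198 ± 0.183 CPM (SD, n = 4), was below the LFD mean of 3.36 ± 0.59 (SD, n = 3), with HFD at 1.37 ± 0.332 (SD, n = 2) (log2 fold change -4.01, SE 0.57, edgeR adjusted p 0.00593). This was called in each of the 9 omissions of 1 library, with adjusted p up to 0.0315. Cxcl9 (ENSMUSG00000029417) reached 1.41, 2.55 and 1.17 CPM in LFD replicates 1 to 3, 0.25 and 0.0838 CPM in the HFD libraries and 0.0778, 0.535, 0 and 0.269 CPM in KD replicates 1 to 4. Its HFD and KD libraries were all below its LFD libraries, but the KD change missed the threshold (log2 fold change -2.75, SE 0.72, edgeR adjusted p 0.0555). Cxcl11 had 8 counts on LFD, 3 on HFD and 1 on KD and was not tested. Cxcr3 itself ranged over 0.0938 to 2.87 CPM on LFD, 0.1 to 0.377 CPM on HFD and 0 to 0.311 CPM on KD, with the top value in LFD replicate 2, and was not called (log2 fold change -3.65, SE 1.38, edgeR adjusted p 0.15). Natural killer cell markers (5 genes) summed to 0.0469 to 1.66 CPM on LFD, 0.5 to 0.545 on HFD and 0.0891 to 0.267 on KD.

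Of the 8 tested monocyte and inflammatory CC ligands, 4 were called lower on KD, where 3.14% of all genes tested were called lower. The median log2 fold change of the 8 was -3.20 (-0.02 over all genes tested), with all 8 below 0. Ccl3, Ccl5 and Ccl7 reached the filter level only on LFD, and Ccl2 and Ccl4 in no KD library. Ccl2 (ENSMUSG00000035385) and Ccl7 (ENSMUSG00000035373) are neighbouring genes whose products recruit monocytes through Ccr2. Ccl2 came to 6.01, 7.98 and 2.44 CPM in LFD replicates 1 to 3, 0.2 and 0.754 CPM in the HFD libraries and 0, 0.223, 0 and 0.0448 CPM in KD replicates 1 to 4. KD replicates 1 and 3 held 0 counts of Ccl2, and no KD or HFD library reached the lowest LFD library. Mean Ccl2 fell from 5.47 ± 2.81 CPM (LFD, SD, n = 3) to 0.0669 ± 0.106 CPM (KD, SD, n = 4), and was 0.477 ± 0.392 CPM on HFD (SD, n = 2) (log2 fold change -5.92, SE 0.76, edgeR adjusted p 0.00445). Ccl2 was called in each of the 9 omissions of 1 library, and its log2 fold change was -7.62 without KD replicate 2, which held 5 of its 6 KD counts. Ccl7 stood at 2.08, 2.15 and 0.234 CPM in LFD replicates 1 to 3, 0.05 and 0.126 CPM in the HFD libraries and 0.0778, 0.0891, 0 and 0.0448 CPM in KD replicates 1 to 4. LFD replicate 3 was the lowest LFD library and above each HFD and KD library. The KD mean of Ccl7, 0.0529 ± 0.04 CPM (SD, n = 4), was below the LFD mean of 1.49 ± 1.09 (SD, n = 3), with HFD at 0.0879 ± 0.0535 (SD, n = 2) (log2 fold change -4.55, SE 0.89, edgeR adjusted p 0.0224). The call of Ccl7 was lost on leaving out KD replicate 2 (edgeR adjusted p 0.0666) and KD replicate 3 (0.0651), its log2 fold change was -5.33 with the acinar score, and it fell below the low-count filter without LFD replicate 1 or 2.

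Ccl4 (ENSMUSG00000018930) and Ccl5 (ENSMUSG00000035042) attract T lymphocytes and monocytes. Ccl4 measured 0.307, 1.48 and 0.657 CPM in LFD replicates 1 to 3, 0.25 and 0.545 CPM in the HFD libraries and 0.0778, 0.0446, 0.0891 and 0.0896 CPM in KD replicates 1 to 4. HFD overlapped LFD, and KD lay below both. Mean Ccl4 fell from 0.814 ± 0.602 CPM (LFD, SD, n = 3) to 0.0753 ± 0.0212 CPM (KD, SD, n = 4), and was 0.397 ± 0.208 CPM on HFD (SD, n = 2) (log2 fold change -3.38, SE 0.75, edgeR adjusted p 0.0319). Ccl5 was at 1.1, 3.81 and 0.469 CPM in LFD replicates 1 to 3, 0.1 and 0.126 CPM in the HFD libraries and 0.233, 0.178, 0.178 and 0.269 CPM in KD replicates 1 to 4. Every HFD and KD library was below the lowest LFD library, and LFD replicate 2 was the highest. The KD mean of Ccl5, 0.215 ± 0.0445 CPM (SD, n = 4), was below the LFD mean of 1.79 ± 1.77 (SD, n = 3), with HFD at 0.113 ± 0.0181 (SD, n = 2) (log2 fold change -3.02, SE 0.69, edgeR adjusted p 0.0357). The call of Ccl4 was lost on leaving out LFD replicate 2 (edgeR adjusted p 0.108), HFD replicate 2 (0.0505), KD replicate 1 (0.0674), KD replicate 2 (0.0934) and KD replicate 3 (0.0862), and with the acinar score (0.104). Its log2 fold change was -2.63 without LFD replicate 2 and -2.78 by limma-voom. The call of Ccl5 was lost on leaving out LFD replicate 1 (edgeR adjusted p 0.0738), LFD replicate 2 (0.153), HFD replicate 1 (0.0549), HFD replicate 2 (0.0557), KD replicate 1 (0.0726), KD replicate 2 (0.0974) and KD replicate 3 (0.0965). It was also lost in a fit of the LFD and KD libraries only (edgeR adjusted p 0.0561) and with the acinar score (0.0638). The log2 fold change of Ccl5 was -1.81 without LFD replicate 2. The other tested ligands of this branch (Ccl3, Ccl6, Ccl8 and Ccl9) had log2 fold changes from -3.47 to -1.89 and edgeR adjusted p from 0.0968 to 0.251. Ccl12 had 5, 5 and 1 counts on LFD, HFD and KD and was not tested.

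Of the receptors enriched on myeloid cells, Ccr2, Cx3cr1, Ccr1 and Xcr1 were tested and 0 of the 4 were called for KD against LFD, with 1 at an unadjusted p below 0.05 by edgeR. Over all genes tested 4.12% were called and 22.7% had such a p. Ccr2, the receptor of Ccl2 and Ccl7, ranged over 2.67 to 7.12 CPM on LFD, 2.43 to 4.1 CPM on HFD and 0.356 to 2.72 CPM on KD (log2 fold change -1.26, SE 0.51, edgeR adjusted p 0.174). Cx3cr1, the fractalkine receptor of resident macrophages, ranged over 0.657 to 2.21 CPM on LFD, 2.75 to 3.44 CPM on HFD and 1.24 to 2.58 CPM on KD and had the largest positive change of the tested family members, which was not called (log2 fold change 0.42, SE 0.42, edgeR adjusted p 0.583). Ccr1 and Xcr1 had log2 fold changes of -1.02 and -1.2 and were not called, and Ccr1l1, Ccr3, Cxcr1 and Cxcr2 were not tested. The 11 macrophage markers summed to 133, 137 and 79.9 CPM in LFD replicates 1 to 3, 97.3 and 130.2 on HFD and 68, 67.1, 40.9 and 76.4 on KD. Of them 1, Lyz2, was called lower on KD, and the part of macrophage content in the ligand results was not tested. The 6 dendritic cell markers summed to 14.2 to 35 CPM on LFD, 19.6 to 21.7 on HFD and 19 to 24.2 on KD, with 0 of 6 called.

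Among the genes of lymphoid homing, receptors and 1 ligand were called lower on KD. Cxcl13 (ENSMUSG00000023078) is the ligand that draws B lymphocytes into follicles, and Cxcr5 (ENSMUSG00000047880) is its receptor. Cxcl13 came to 28.1, 13.4 and 1.17 CPM in LFD replicates 1 to 3, 0.9 and 0.293 CPM in the HFD libraries and 0.0778, 0.267, 0.267 and 0.314 CPM in KD replicates 1 to 4. LFD replicates 1 and 2 were far above every other library, while LFD replicate 3 exceeded the highest HFD library only narrowly. Mean Cxcl13 fell from 14.2 ± 13.5 CPM (LFD, SD, n = 3) to 0.231 ± 0.105 CPM (KD, SD, n = 4), and was 0.597 ± 0.429 CPM on HFD (SD, n = 2) (log2 fold change -5.83, SE 1.01, edgeR adjusted p 0.021). Cxcr5 read 5.27, 14.5 and 0.891 CPM in LFD replicates 1 to 3, 0.1 and 0.251 CPM in the HFD libraries and 0, 0.0446, 0 and 0.0896 CPM in KD replicates 1 to 4. Its 3 KD counts were in KD replicates 2 and 4. Pooled by diet, the LFD libraries held 428 counts of Cxcr5 and the KD libraries 3, a scaled ratio of 164 for LFD over KD (95% exact interval 55.7 to 798, counting error only; edgeR adjusted p 0.00985). Without LFD replicate 2, which held 323 of these counts, the ratio was 64 (21.3 to 315). Both genes were above the HFD libraries in every LFD library.

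Cxcr5 stayed past the threshold in each of the 9 omissions of 1 library (adjusted p up to 0.0447), though its fitted change was -5.97 without LFD replicate 2 and -7.96 without KD replicate 4, against -7.13. Cxcl13 lost its call on leaving out LFD replicate 2 (edgeR adjusted p 0.0548), KD replicate 1 (0.0628), KD replicate 2 (0.0703) and KD replicate 3 (0.0753). Its adjusted p was 0.0619 with no low-count filter and 0.117 by limma-voom, and the log2 fold change of Cxcl13 was -4.89 without LFD replicate 1 and -7.13 with the acinar score.

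Ccr7 (ENSMUSG00000037944) guides T lymphocytes, B lymphocytes and dendritic cells to Ccl19 and Ccl21. Ccr7 stood at 4.23, 11.4 and 0.938 CPM in LFD replicates 1 to 3, 0.1 and 0.377 CPM in the HFD libraries and 0, 0, 0 and 0.179 CPM in KD replicates 1 to 4. Its 4 KD counts were all in KD replicate 4, and LFD replicate 2 held the most. The KD mean of Ccr7, 0.0448 ± 0.0896 CPM (SD, n = 4), was below the LFD mean of 5.52 ± 5.34 (SD, n = 3), with HFD at 0.239 ± 0.196 (SD, n = 2) (log2 fold change -6.46, SE 1.07, edgeR adjusted p 0.0135). LFD libraries held 343 counts of Ccr7 in all and KD libraries 4, a scaled ratio of 98.5 (95% exact interval 38.1 to 363), or 40.7 (15.4 to 153) without LFD replicate 2. Ccr7 lost its call on leaving out KD replicate 2 (edgeR adjusted p 0.0504) and KD replicate 3 (0.0517), and its log2 fold change was -5.36 without LFD replicate 2 and -9.7 without KD replicate 4. Ccl21a (ENSMUSG00000094686) measured 1.72, 8.33 and 1.13 CPM in LFD replicates 1 to 3, 0 and 0 CPM in the HFD libraries and 0, 0.624, 0 and 0.403 CPM in KD replicates 1 to 4. KD replicates 2 and 4 held counts and lay below the LFD libraries (log2 fold change -3.61, SE 0.97, edgeR adjusted p 0.0718), so this ligand missed the threshold. LFD replicate 2 held 186 of the 238 LFD counts of Ccl21a, and without it the log2 fold change was -2.24. Against HFD, where it had 0 counts, its LFD level was at least 58-fold higher, counting 3 counts over the group as the floor, at least 20.2-fold without LFD replicate 2 and at least 31.6- and 26.5-fold without HFD replicate 1 and 2, and that difference was not called (edgeR adjusted p 0.257). Ccl21 exists as near-identical copies in mice and its level is uncertain, since the sources used here do not state how shared reads were handled, and Ccl21b had 0 counts throughout. Ccl19 overlapped between diets, at 0.368 to 1.12 CPM on LFD, 0.5 to 0.587 CPM on HFD and 0.178 to 0.934 CPM on KD (log2 fold change -0.33, SE 0.65, edgeR adjusted p 0.807).

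Ccr6 (ENSMUSG00000040899), a receptor of B lymphocytes and interleukin 17-producing T lymphocytes, had 0 counts in each KD library. Ccr6 was at 0.92, 2.51 and 0.797 CPM in LFD replicates 1 to 3, 0 and 0.21 CPM in the HFD libraries and 0, 0, 0 and 0 CPM in KD replicates 1 to 4. With 88 counts on LFD and 0 on KD, Ccr6 was at least 33.7-fold lower on KD, with a floor of 3 counts over the group (edgeR adjusted p 0.0237). LFD replicate 2 held 56 of the 88 counts of Ccr6, and without it the bound was 19.5-fold. The call of Ccr6 was lost on leaving out LFD replicate 1 (edgeR adjusted p 0.0598), LFD replicate 2 (0.0719), KD replicate 2 (0.0652) and KD replicate 3 (0.0575). Its ligand Ccl20 was not tested, with at most 0.0938 CPM in any library.

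Cxcr4 (ENSMUSG00000045382) is the receptor of Cxcl12 (ENSMUSG00000061353), which retains lymphocytes and blood-forming cells in tissue and is made by stroma and endothelium. Cxcr4 reached 10.4, 23.3 and 5.53 CPM in LFD replicates 1 to 3, 3.7 and 5.61 CPM in the HFD libraries and 1.32, 3.07, 1.25 and 3.9 CPM in KD replicates 1 to 4. The KD libraries all lay below the LFD libraries, and the HFD libraries lay across the lower end of LFD. Mean Cxcr4 fell from 13.1 ± 9.18 CPM (LFD, SD, n = 3) to 2.39 ± 1.32 CPM (KD, SD, n = 4), and was 4.66 ± 1.35 CPM on HFD (SD, n = 2) (log2 fold change -2.4, SE 0.51, edgeR adjusted p 0.0311). Cxcl12 came to 27.9, 29.7 and 16.8 CPM in LFD replicates 1 to 3, 21.1 and 22.4 CPM in the HFD libraries and 31.2, 27.1, 24.3 and 20.1 CPM in KD replicates 1 to 4. The ligand overlapped in all 3 diets and was not called (log2 fold change 0.05, SE 0.21, edgeR adjusted p 0.917), so the receptor was called and the ligand was not. The direction of the small Cxcl12 difference turned with limma-voom, with the acinar score and without LFD replicate 3 or KD replicate 1. Cxcr4 lost its call on leaving out LFD replicate 1 (edgeR adjusted p 0.0786), LFD replicate 2 (0.0894), HFD replicate 1 (0.0523), HFD replicate 2 (0.0518), KD replicate 1 (0.0699), KD replicate 2 (0.0736) and KD replicate 3 (0.0862). The same held with no low-count filter (edgeR adjusted p 0.104) and with the acinar score (0.0863). Its log2 fold change was -1.69 without LFD replicate 2. Cxcr6, on resident T lymphocytes, ranged over 0.516 to 5.24 CPM on LFD, 0 to 0.5 CPM on HFD and 0.0891 to 0.233 CPM on KD and missed the threshold (log2 fold change -3.71, SE 1.04, edgeR adjusted p 0.0707).

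Lymphocyte markers moved with this axis. Of the 6 tested lymphocyte-enriched receptors, 4 were called lower on KD (Cxcr5, Ccr7, Ccr6 and Cxcr4), where 3.14% of all genes tested were called lower. The median log2 fold change of the 6 was -5.08 (-0.02 over all genes tested). Ccr6 and Cxcr5 reached the filter level only on LFD, and Ccr7 in no KD library. The lymphocyte-enriched receptors Ccr4, Ccr8, Ccr9 and Ccr10 were not tested. The summed level of the 10 such receptors was 22.3, 61.2 and 9.05 CPM in LFD replicates 1 to 3, 4.6 and 6.87 on HFD and 1.87, 3.61, 1.42 and 4.35 on KD. Its order over the LFD libraries was that of the B and T lymphocyte sums, with LFD replicate 2 highest and LFD replicate 3 lowest. The B lymphocyte marker Ms4a1 had 939 counts on LFD, 18 on HFD and 3 on KD, and the T lymphocyte marker Cd3e had 128, 14 and 5. Markers of lymphoid tissue stroma and high endothelium (6 genes) summed to 4.74 to 8.95 CPM on LFD, 6.75 to 7.58 on HFD and 2.14 to 5.2 on KD, with Pdpn called lower on KD of 3 tested. The part of lymphocyte content in the receptor results was not tested.

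**Figure D3:**
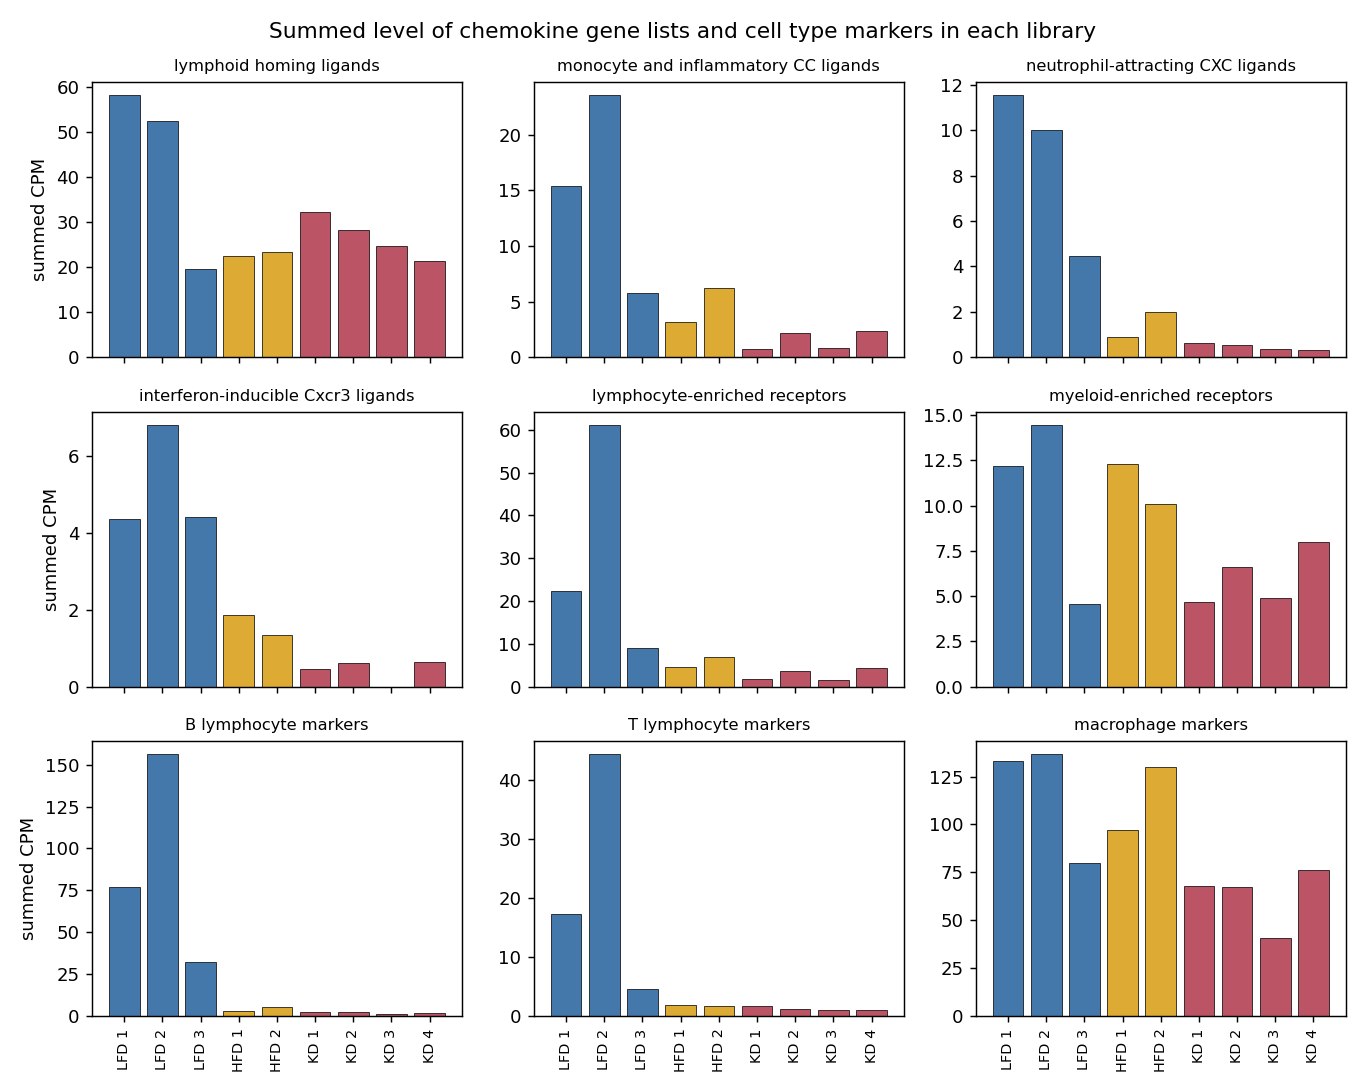
Summed CPM in each library (bars from 0, 1 panel per list with its own linear scale) of 6 chemokine and receptor branches and 3 cell type marker lists, for LFD replicates 1 to 3, HFD replicates 1 and 2 and KD replicates 1 to 4. Lymphocyte-enriched receptor, B lymphocyte and T lymphocyte sums were lower in every HFD and KD library than in every LFD library, while the macrophage sums of HFD lay within the LFD range.

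Ccl11 (ENSMUSG00000020676), or eotaxin, draws eosinophils through Ccr3, and it had the highest mean level per length of the family over the 9 libraries, although it led on no single diet. Ccl11 read 11.6, 11.9 and 5.67 CPM in LFD replicates 1 to 3, 5.35 and 6.54 CPM in the HFD libraries and 4.43, 3.34, 1.42 and 2.91 CPM in KD replicates 1 to 4. KD lay below LFD in every library, HFD replicate 1 was also below, and HFD replicate 2 fell within the LFD range. The KD mean of Ccl11, 3.03 ± 1.25 CPM (SD, n = 4), was below the LFD mean of 9.73 ± 3.52 (SD, n = 3), with HFD at 5.94 ± 0.837 (SD, n = 2) (log2 fold change -1.67, SE 0.35, edgeR adjusted p 0.0268). Ccl11 lost its call on leaving out LFD replicate 1 (edgeR adjusted p 0.101), LFD replicate 2 (0.0848), KD replicate 2 (0.0703) and KD replicate 3 (0.0597). Cxcl16 (ENSMUSG00000018920) is a membrane-bound ligand of Cxcr6 that also takes up oxidised lipoprotein. Cxcl16 stood at 12.7, 13.6 and 9.71 CPM in LFD replicates 1 to 3, 7.9 and 8.25 CPM in the HFD libraries and 4.75, 6.01, 3.74 and 4.79 CPM in KD replicates 1 to 4. Its 3 diets did not overlap, in the order LFD, HFD and KD. Mean Cxcl16 fell from 12 ± 2.03 CPM (LFD, SD, n = 3) to 4.82 ± 0.931 CPM (KD, SD, n = 4), and was 8.08 ± 0.248 CPM on HFD (SD, n = 2) (log2 fold change -1.3, SE 0.2, edgeR adjusted p 0.0104). Cxcl16 was called in each of the 9 omissions of 1 library, with log2 fold changes from -1.43 to -1.2.

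Cxcl14 (ENSMUSG00000021508) measured 8.09, 8.6 and 3.52 CPM in LFD replicates 1 to 3, 4.2 and 5.11 CPM in the HFD libraries and 3.97, 2.98, 1.96 and 1.97 CPM in KD replicates 1 to 4. Cxcl14, a chemokine of epithelium and fibroblasts, overlapped between KD and LFD through LFD replicate 3 and missed the threshold (log2 fold change -1.31, SE 0.35, edgeR adjusted p 0.0599). The 8 fibroblast and stellate cell markers summed to 419 to 736 CPM on LFD, 473 to 604 on HFD and 204 to 420.5 on KD, with 0 of 8 called, and their part in the Ccl11 and Cxcl14 values was not tested. Cx3cl1 (ENSMUSG00000031778) was at 8.58, 9.68 and 13.5 CPM in LFD replicates 1 to 3, 9.9 and 14.4 CPM in the HFD libraries and 14.2, 12.7, 11.8 and 14.6 CPM in KD replicates 1 to 4. Cx3cl1, or fractalkine, is the membrane-bound ligand of Cx3cr1, and its diets overlapped (log2 fold change 0.33, SE 0.2, edgeR adjusted p 0.355). Ccl28 (ENSMUSG00000074715) reached 11, 12.9 and 18.5 CPM in LFD replicates 1 to 3, 37.2 and 24.6 CPM in the HFD libraries and 6.69, 14.7, 8.82 and 22.9 CPM in KD replicates 1 to 4. Ccl28, a mucosal chemokine that attracts antibody-secreting cells, was above every LFD and KD library in both HFD libraries. Neither difference was called (HFD against LFD: log2 fold change 1.12, SE 0.44, edgeR adjusted p 0.449), with KD against HFD at -1.2 (SE 0.41, edgeR adjusted p 0.143). KD replicates 2 and 4 were the highest KD libraries for Ccl28, and its KD against LFD difference of -0.08 turned above 0 by limma-voom, with the acinar score and without LFD replicate 3, KD replicate 1 or KD replicate 3. Ccl25, a gut and thymus chemokine, kept within 6.79 to 10.3 CPM over the 9 libraries (log2 fold change 0.04, SE 0.18, edgeR adjusted p 0.93). Ccl27a, a skin chemokine whose reads may be shared with the copy Ccl27b, ranged over 2.7 to 4.39 CPM on LFD, 2.8 to 3.27 CPM on HFD and 1.78 to 3.11 CPM on KD (log2 fold change -0.59, SE 0.29, edgeR adjusted p 0.263).

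The 4 atypical receptors were all tested and 0 were called for KD against LFD by edgeR, with 0 at an unadjusted p below 0.05 and all 4 log2 fold changes below 0. The shares called and at such a p over all genes tested were 4.12% and 22.7%. Ackr3, which scavenges Cxcl12, ranged over 5.25 to 7.23 CPM on LFD, 5.32 to 6.8 CPM on HFD and 2.14 to 5.08 CPM on KD (log2 fold change -0.62, SE 0.29, edgeR adjusted p 0.232). It was the only atypical receptor whose KD libraries all lay below its LFD libraries. Ackr1, which carries chemokines across venules, ranged over 0.375 to 2.46 CPM on LFD, 2.05 to 2.26 CPM on HFD and 0.403 to 1.69 CPM on KD, and its log2 fold change was -0.84. Ackr2 and Ackr4, scavengers of inflammatory and homeostatic CC chemokines, had log2 fold changes of -0.57 and -0.6 at levels up to 1.84 CPM.

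The high fat diet gave no call for the family. The HFD mean lay below the LFD mean for each of the 14 genes called on KD. These genes were picked as high in the same LFD libraries, so this is a description only. For HFD against LFD edgeR called 0 of 38 members, as it called 0% of all genes. Of the 38, 17 had an unadjusted p below 0.05 (9.99% of all genes tested), and the smallest adjusted p was 0.208, for Cxcl1. DESeq2 called 8 of the 38 and limma-voom 0, and edgeR called 7 without LFD replicate 3. The 0% over all genes belongs to the main edgeR fit only. The shares over all genes in these other fits are not given here, so their counts are not read as a result about the family. The median log2 fold change was -1.19 (-0.0017 over all genes), and 17 members did not overlap (27.5% of all genes), 14 with HFD below LFD (14.1%) and 3 above (13.4%). For KD against HFD edgeR called 0 of 38, again 0% of all genes. Here 8 members had an unadjusted p below 0.05 (22.7% of all genes), the median was -0.79 (-0.04 over all genes) and the smallest adjusted p was 0.124, for Cxcl10. DESeq2 called 2 and limma-voom 0 of these, and edgeR called 2 without KD replicate 4. The shares over all genes in those fits are not given here either. The diets did not overlap for 16 members (33.9% of all genes), with KD below HFD for 15 (18.2%) and above for 1 (15.7%). The KD and HFD comparisons share the LFD libraries, so their values are set side by side only.

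Set side by side, the log2 fold changes against LFD were -2.57 on HFD and -4.25 on KD for Cxcl1, -3.47 and -5.92 for Ccl2, and -4.59 and -5.83 for Cxcl13. They were -4.46 and -6.46 for Ccr7, -0.57 and -1.3 for Cxcl16, and -0.71 and -1.67 for Ccl11. Of the 14 genes called on KD, 11 had both HFD libraries below every LFD library, and in 13 the HFD mean lay above the KD mean. Ccl5 was the exception, at 0.113 CPM on HFD and 0.215 on KD. In 5 of the 14 the HFD libraries lay strictly between the other diets. The 14 were chosen as high on LFD and low on KD in these same libraries, so the counts of 11, 13 and 5 are a description only. Over all genes tested, 14.1% had HFD below LFD without overlap, and shares for the other counts are not given here. KD against HFD differed by -2.71 for Cxcl10 (SE 0.62, edgeR adjusted p 0.124), -1.67 for Cxcl1 (adjusted p 0.131) and -2.45 for Ccl2 (adjusted p 0.165), none past the threshold. The joint edgeR test over the 3 diets called 11 members, where 2.17% of all genes were called, and all 11 were among the 14. Ccl11, Ccl4 and Cxcr4 were the 3 not called jointly (adjusted p 0.0596, 0.0696 and 0.0631). That count ran from 2 to 15 over omissions of 1 library, with 2 without KD replicate 2, 3 without LFD replicate 1 or 2, 4 without KD replicate 3 or either HFD library and 5 without KD replicate 1.

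Levels were compared between genes as CPM per kilobase of exon, since longer transcripts collect more reads. On LFD the leading genes were Cxcl13 (12.4 ± 11.7 CPM per kilobase, SD, n = 3), Ccl11 (9 ± 3.25), Cxcr4 (7.24 ± 5.08), Ccl2 (4.81 ± 2.47), Ccl21a (4.28 ± 4.6) and Cxcl16 (3.97 ± 0.671). Neighbours in that order did not differ beyond their spread. On KD the order was led by Cx3cl1 (3.39 ± 0.321 CPM per kilobase, SD, n = 4), Cxcl12 (3.14 ± 0.573), Ccl11 (2.8 ± 1.15) and Ccl28 (2.74 ± 1.5), again within each other's spread. HFD was led by Ccl28 (6.38 ± 1.84, SD, n = 2) and Ccl11 (5.49 ± 0.774), followed by Cx3cl1 (3.09 ± 0.811). So Cxcl13 and Ccl2, among the leaders on LFD, stood at 0.201 ± 0.0911 and 0.0588 ± 0.0932 CPM per kilobase on KD, while Cx3cl1 and Cxcl12 held 2.69 ± 0.658 and 3.03 ± 0.855 on LFD. Summed over the 61 genes, the family held 200.003, 249.9 and 118 CPM in LFD replicates 1 to 3, 132 and 127 CPM on HFD and 93.3, 100.3, 73.4 and 102 CPM on KD. The KD libraries all lay below the LFD and HFD libraries.

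**Figure D4:**
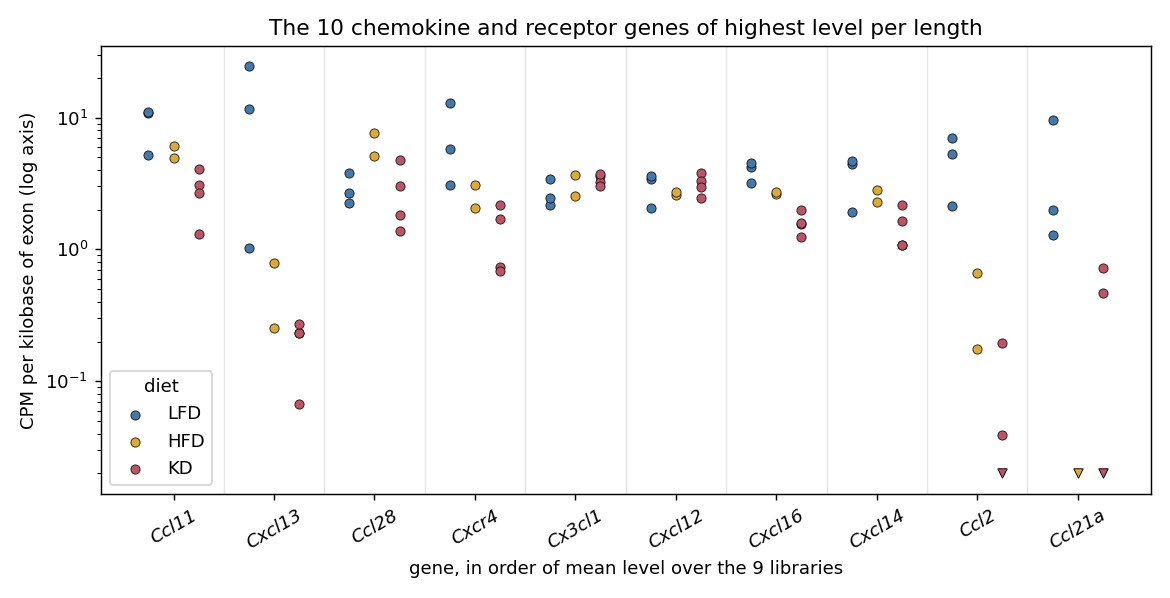
Level in each library (points, vertical log axis, CPM per kilobase of exon) of the 10 members with the highest mean over the 9 libraries, in that order, with down-pointing triangles at the foot of the axis for libraries with 0 counts. Ccl11 leads the order at a mean of 5.46, and for Cxcl13, Ccl2 and Ccl21a the LFD points lie above the HFD and KD points, while for Cx3cl1 and Cxcl12 the 3 diets overlap.

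Chemokine genes lie in clusters, and calls were compared along the order of protein-coding genes in RefSeq GRCm38.p6. Over the tested family 36.8% were called lower on KD than on LFD, and over all genes tested 3.14%. In the run Ccl2, Ccl7, Ccl11, Ccl12, Ccl8 and Ccl1, 3 of 4 tested genes were called lower on KD. In the run Ccl5, Ccl9, Ccl6, Ccl3 and Ccl4, 2 of 5 were called, the genes at its ends. Both tested genes of the run Cxcl3, Cxcl15, Cxcl1 and Cxcl2 were called. The run Ccl19 and Ccl21a gave 0 calls of 2 tested, Ccl22, Cx3cl1 and Ccl17 gave 0 of 1, and Cx3cr1 and Ccr8 gave 0 of 1. These runs are short, and no run was tested as a set. Of the neighbouring receptor genes Cxcr6, Xcr1, Ccr1, Ccr1l1, Ccr3 and Ccr2, 0 of 4 tested were called, with 2 at an unadjusted p below 0.05 by edgeR. The share at such a p over all genes tested was 22.7%.

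The 23 members that were not tested had low counts. Of these, 6 had 0 counts in every library (Ccl1, Ccl21b, Ccl26, Ccl27b, Cxcl15 and Cxcr1). The other 17 had at most 70 counts over the 9 libraries and at most 1.84 CPM in any of them. Ccl22, a ligand of Ccr4 on regulatory and type 2 T lymphocytes, was the most abundant, with 54 counts on LFD, 10 on HFD and 6 on KD, a ratio of 10.3 for LFD over KD after scaling (95% exact interval 4.45 to 29.4, counting error only). LFD replicate 2 held 41 of the 54 LFD counts of Ccl22, and without it the ratio was 3.96 (1.41 to 12.7). Xcl1, made by natural killer and T lymphocytes, had 11 counts on LFD and 0 on HFD and KD, and Ccr8 had 10, 0 and 0. A count of 0 in a library allows up to 3 counts, for counting error only.

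Genes that act with chemokines were read from 3 lists. For KD against LFD, 3.14% of all genes tested were called lower and 0.981% higher, with a median log2 fold change of -0.02. Of 55 tested genes that carry the signal inside the cell, 7 were called lower on KD (12.7%) and 0 higher, with a median of -0.17. Among the 7 were Dock2, which drives leukocyte migration, at -3.49 (SE 0.51, edgeR adjusted p 0.0108), the leukocyte GTPase Rac2 at -3.72 (SE 0.71, edgeR adjusted p 0.0232), Rgs1, which limits G protein signalling, at -2.78 (SE 0.55, edgeR adjusted p 0.0237), the exchange factor Vav1 at -2.53 (SE 0.51, edgeR adjusted p 0.0237), and the kinase subunit Pik3cd at -2.22 (SE 0.45, edgeR adjusted p 0.0253). Mean Dock2 dropped from 26.8 ± 18.9 CPM (LFD, SD, n = 3) to 2.3 ± 1.11 CPM (KD, SD, n = 4). As background, these named genes are used mainly by blood cells. Of 12 tested attractants and attractant receptors outside the family, 1 was called lower (8.33%) and 0 higher, with a median of -0.64. It was Gpr183, the oxysterol receptor that positions B lymphocytes, at -3.29 (SE 0.66, edgeR adjusted p 0.0247).

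Of 13 tested lymphoid-organising cytokine and NF-κB genes, 5 were called lower on KD than on LFD (38.5%, 3.14% over all genes tested) and 0 higher. Their median log2 fold change was -0.69 (-0.02 over all genes tested). Nfkbia, the inhibitor induced by NF-κB, dropped from 66.9 ± 21.8 CPM (LFD, SD, n = 3) to 21.3 ± 4.64 CPM (KD, SD, n = 4), a log2 fold change of -1.65 (SE 0.24, edgeR adjusted p 0.00712). Relb and Nfkb2, subunits of the non-canonical pathway, changed by -1.93 (SE 0.31, edgeR adjusted p 0.0104) and -1.35 (SE 0.28, edgeR adjusted p 0.0269). Ltb, the lymphotoxin subunit that builds lymphoid tissue, changed by -4.46 (SE 0.95, edgeR adjusted p 0.03), and Tnfrsf13c, the B lymphocyte survival receptor, by -5.29 (SE 1.05, edgeR adjusted p 0.0267). Ltbr, Rela, Tnfrsf1a and Tnfsf13b were not called, with log2 fold changes of 0.43, -0.11, 0.02 and 0.33. No gene of the 3 lists was called by edgeR for HFD against LFD or KD against HFD, with 17 and 17 of 80 tested (21.25%) at an unadjusted p below 0.05, where the shares over all genes tested were 9.99% and 22.7%.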

How the data were processed

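Islet RNA was extracted with Trizol and chloroform, selected for polyadenylated RNA and made into strand-specific libraries, per the labels' protocols. The authors deposited raw counts per Ensembl gene, whole numbers with 1 column per library. Per the submitters' processing notes, the tools were cutadapt 1.16, STAR 2.7.9a, featureCounts 1.6.3 and DESeq2 1.40.2 on GRCm39 (mm39). The strand setting of the counting and the handling of reads shared by similar genes are not given in the sources used here. Libraries were grouped by the diet in their titles. The labels name no batch or date, so an effect of batch cannot be told apart from one of diet.

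Counts were tested with edgeR 4.0.16 in R 4.3.3: filterByExpr by diet with a minimum count of 10, TMM scaling, robust glmQLFit and glmQLFTest (two-sided) over all 9 libraries, and Benjamini-Hochberg adjustment over 18548 genes with a threshold of 0.05. Genes tested held at least 99.86% of each library's counts. Standard errors are the size of the log2 fold change over the square root of F. Ratios of pooled counts carry 95% exact (Clopper-Pearson) intervals, and a group at 0 counts is set to a floor of 3. Both cover counting error only. Symbols from the supplied annotation matched 51948 of 56941 identifiers, exon lengths came from GENCODE M21, and 46 of the 61 members had a promoter in the RefSeq table. In simulated data with 200 genes changed on KD, the fit called 49% of them for KD against LFD (28% at 2-fold and 70% at 4-fold), with 6 false calls. A gene not called may therefore still differ. The changed genes were drawn only from genes above a minimum expected mean count, starting from a mean shared by the diets. The shares recovered may therefore not hold for members near 0 counts. Changes on HFD were not simulated.

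The members, lists and tests were chosen with earlier results of these data known. Named with values in every library were members called in any test, the 10 of lowest p in each pairwise comparison and the 10 of highest level per length. A few genes are not reported here, though they stay in the counts over lists. Ccr2, Cx3cr1, Cxcr3, Cxcr6, Ccl19, Ccl22, Ccl25, Ccl27a and the atypical receptors were added as ranges after their values were seen. The alternatives were DESeq2 size factors, TMM without acinar, hormone and immunoglobulin genes, no low-count filter, a filter of 1 CPM in 3 libraries, DESeq2 1.42.0, limma-voom (limma 3.58.1), a fit of the compared diets only, an acinar or B lymphocyte score as a covariate, a replicate block and the omission of each library.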

Additional observations from a re-analysis of the deposited data

Results flagged for a closer look

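Ccr7 in KD replicate 4 stood at 0.179 CPM, which was 4 counts, while the other 3 KD libraries held 0. Its gap to the nearest KD library was the whole range of the group, above the 95% critical value of Dixon's test for 4 samples. With the other 3 libraries tied at 0, any count would give that result, so the test cannot decide whether this library stands apart. Of the 20 members examined in the KD group this was the 1 that passed. The usual rate by chance, about 1 in 20, does not hold for tied counts. Without KD replicate 4 the Ccr7 log2 fold change for KD against LFD was -9.70 (edgeR adjusted p 0.0278), with all remaining KD libraries at 0, so that size depends on the prior count.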

How the results depend on the processing

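For KD against LFD, 14 members were called by edgeR. The count was 14 with DESeq2 size factors, 14 with TMM without acinar, hormone and immunoglobulin genes, 16 with no low-count filter, 18 by DESeq2, 16 by limma-voom, 11 in a fit of the compared diets only and 12 with the acinar score. It was 9 with the stricter filter (1 CPM in 3 libraries), where 24 members were tested, and 0 with the B lymphocyte score. Omitting 1 library gave 5 to 18. For HFD against LFD the count of 0 became 2 with no low-count filter and 8 by DESeq2, and 0 to 7 over omissions. For KD against HFD it became 1 and 2 under the same settings, and 0 to 2 over omissions. The joint count of 11 was 7 with the 1 CPM filter, 18 by DESeq2, 0 with the B lymphocyte score and 2 to 15 over omissions. The cause of these moves was not tested, apart from the filter, which tests fewer members. Except for the B lymphocyte score, the shares over all genes in these other fits are not given here. The counts show only how the family's own count moved.

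With the replicate number as a block, edgeR called 19 members for KD against LFD, 9 for HFD against LFD, 5 for KD against HFD (4 lower, 1 higher) and 19 jointly. The shares over all genes in this fit are not given here. The labels do not say that a number pairs libraries, and same-numbered KD and LFD libraries had correlations of deviations of 0.222, -0.0164 and -0.00265, so the block was not used.

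With the B lymphocyte score as a covariate, the log2 fold change turned sign for these members. For KD against LFD it was 0.98 for Ccl11, 3.57 for Ccl21a, 3.96 for Ccl5, 2.17 for Ccl7, 2.33 for Ccr7, -0.11 for Cx3cl1, 1.48 for Cxcl14, 2.65 for Cxcr4 and 2.28 for Cxcr5. For HFD against LFD it was 1.41 for Ccl11, 1.42 for Ccl4, 1.67 for Ccl5, 1.35 for Ccl7, 2.5 for Ccr7, -0.14 for Cx3cl1, 1.07 for Cxcl12, 1.69 for Cxcl14, 0.31 for Cxcl16, 0.27 for Cxcl2, 2.55 for Cxcr4 and 2.27 for Cxcr5. For KD against HFD it was 0.82 for Ccl7, 0.0977 for Cxcr4 and 0.00732 for Cxcr5. Score and diet cannot be told apart in this fit, so these values are not read as changes with diet. Its edgeR adjusted p for KD against LFD was 0.378 to 0.799 for Ccl5, Ccl7, Ccl11, Ccr7, Cxcr4 and Cxcr5. Small changes also turned sign with the acinar score, to 0.53 for Ccl28 (KD against LFD), -0.26 for Cxcl12 (KD against LFD), 0.0282 for Cxcl12 (HFD against LFD) and -0.29 for Cxcl12 (KD against HFD) and by limma-voom, to 0.0606 for Ccl28 (KD against LFD) and -0.0364 for Cxcl12 (KD against LFD). Over omissions of 1 library, the log2 fold changes that turned sign ranged over -0.48 to 0.17 for Ccl28 (KD against LFD), -1.05 to 0.18 for Ccl7 (KD against HFD), -0.0979 to 0.44 for Cx3cl1 (HFD against LFD), -0.11 to 0.43 for Cx3cl1 (KD against HFD), -0.17 to 0.20 for Cxcl12 (KD against LFD) and -0.23 to 1.51 for Cxcl9 (KD against HFD). Of the results for single named members, 960 kept direction and side of the threshold, 54 lost the call, 46 gained it and 39 turned sign. The 960 include results that were not called in the main fit and stayed so. Among the called genes, Ccl5 and Cxcr4 kept their call in 2 of 9 omissions. Cxcl1, Cxcl10, Cxcl16, Ccl2 and Cxcr5 kept theirs in all 9, and the other called genes lay between or were not tested in some omissions.

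Depth limits the low members: KD libraries held 0 to 10 counts of Ccl2 and Cxcl1, and 17 members with counts could not be tested.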

Other observations

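Levels of 2 ligands and 2 receptors were also set against the summed counts of the 11 macrophage markers in the same library, a description chosen after the values were seen and with no test. Macrophages are 1 of several cell types that make or read these genes. Ccl2 had 4.51, 5.83 and 3.05 counts per 100 macrophage marker counts in LFD replicates 1 to 3. It had 0.206 and 0.579 in the HFD libraries and 0, 0.332, 0 and 0.0587 in KD replicates 1 to 4. Cxcl1 had 5.98, 5.6 and 4.7 per 100 on LFD, 0.514 and 1.25 on HFD and 0.458, 0.664, 0.871 and 0.293 on KD. For both ligands every LFD library lay above every HFD and KD library on this scale.

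The receptors gave other patterns on the same scale. Ccr2 ran from 3.35 to 5.21 per 100 macrophage marker counts on LFD, 1.87 to 4.22 on HFD and 0.871 to 4.05 on KD. Cx3cr1, the fractalkine receptor, ran from 0.822 to 1.66 on LFD, 2.64 to 2.83 on HFD and 1.83 to 6.32 on KD, so its LFD libraries lay below all others.

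Cxcr5 had 6.85, 9.25 and 2.77 counts per 100 counts of the 10 B lymphocyte markers on LFD and 3.17 and 4.76 on HFD. On KD it had 0, 2.17, 0 and 5.56, from 3 counts in all. Ccr7 had 5.49, 7.27 and 2.92 on LFD, 3.17 and 7.14 on HFD, and 0, 0, 0 and 11.1 on KD. On this scale the HFD libraries lay within the LFD range for both receptors. Ccr6 had 1.19, 1.6 and 2.48 on LFD, 0 and 3.97 on HFD, outside the LFD range on either side, and 0 in each KD library, where B lymphocyte marker counts were 13 to 46.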
